A study of Arabidopsis thaliana with 4 samples.

Results

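IAA29 (AT4G32280), GH3.3 (AT2G23170) and WES1 (AT4G27260, also called GH3.5) are early auxin response genes of Arabidopsis thaliana. They were taken by name, with earlier results of these data known. Each was read through the 1 probe set that the platform annotation gives it, and they are 3 of the 13648 probe sets tested. Transcript levels were read on single-colour ATH1 arrays from whole seedlings aged 14 days, given a cold treatment of 2 days and raised on agar medium at 24 °C in cycles of 16 h light and 8 h dark. There was 1 array of a cesta enhancer trap line, 2 arrays of a cesta T-DNA knockout line and 1 array of Columbia-0 wild type, all with the Col-0 background in the labels. CESTA (CES) is a basic helix-loop-helix transcription factor that acts in the response to brassinosteroids. The labels tag the enhancer trap line as a gene knockout too. The insertion sites, the number of independent lines and the plants behind each knockout array are not given in the sources used here.

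Auxin acts by bringing Aux/IAA repressor proteins to the TIR1/AFB F-box receptors, which leads to their degradation and frees the auxin response factors they hold. Many Aux/IAA and GH3 genes are themselves switched on within minutes by auxin, so that both families form part of a feedback loop. IAA29 encodes an Aux/IAA repressor and is also a known target of the phytochrome-interacting factors of light and shade signalling. GH3.3 and WES1 encode acyl acid amido synthetases, which join the auxin indole-3-acetic acid to amino acids and so lower the free hormone. WES1 accepts salicylic acid as well.

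Values are signal intensities on a linear scale, and each array had a median between 38.5 and 39.6. CES, read as the check of the labels, had a signal of 4124 in the enhancer trap, 7.29 and 5.35 in the knockout arrays and 0.533 in wild type. The 27 Bacillus controls, which have no target in the plant, reached a signal of 10.6 at most over all arrays, and a signal at or under it is taken as background. The enhancer trap thus had high CES signal, against its knockout tag, while the knockout and wild-type readings of CES were all within background and check nothing. Shoot and root transcripts were both present: the light-harvesting gene LHCB4.1 had signals of 4947 to 5821 and the root gene PYK10 of 3308 to 4112. RNA integrity, read as the ratio of the 3' to the 5' GAPDH control, gave 1.38 in the enhancer trap, 1.86 and 2.00 in the knockout arrays and 1.70 in wild type. The same ratio of the actin control gave another order, 2.55 in the enhancer trap, 3.12 and 2.04 in the knockout arrays and 2.49 in wild type. The part of RNA integrity in the differences below was not tested. In whole seedlings, fewer cells of a type and less RNA per cell cannot be told apart.

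IAA29, GH3.3 and WES1 all passed the test as lower in the enhancer trap than in wild type, as did 2.26% of all tested probe sets, and as lower than in the knockout, as did 3.25%. IAA29 lay at background there, at least 6.22-fold below wild type. GH3.3 was 3.05-fold lower than in wild type and WES1 1.74-fold lower. The call of WES1 against wild type held in 5 of 8 alternative settings that gave a test. These 5 include a fit against wild type and knockout as 1 group of 3, which is another contrast. They also include a scaling chosen after seeing the data. None of the 3 differed past the test between knockout and wild type, where 0.183% of all probe sets did, although each was higher in both knockout arrays than in the wild-type array.

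The repressor gene IAA29 had a signal of 9.24 in the enhancer trap, 100.1 and 93.0 in the knockout arrays and 66.0 in wild type. The enhancer-trap array was the low one, and the knockout arrays lay close together above wild type. Within each array, the percentile of IAA29 among all probe sets was 28.0 in the enhancer trap, 71.9 and 70.4 in the knockout arrays and 61.6 in wild type. Its 9.24 was under the 10.6 used as background but above 7.57, the highest Bacillus control on that same array. IAA29 was at least 6.22-fold lower in the enhancer trap than in wild type and at least 9.09-fold lower than the knockout mean of 96.5 ± 5.05 (SD, n = 2). On the log2(signal + 1) scale the fitted differences were -2.71 (limma adjusted p = 1.94e-08) and -3.25 (limma adjusted p = 1.26e-12). With a pseudocount of 16 they were -1.70 and -2.16. The fitted differences and their p-values rest on a reading within background and are no bounds, and the bounds were not tested.

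The auxin-conjugating enzyme gene GH3.3 had a signal of 27.8 in the enhancer trap, 151 and 126 in the knockout arrays and 86.9 in wild type. All 4 readings were above background, and the order of the arrays was that of IAA29. Its percentile was 43.4 in the enhancer trap, 80.2 and 76.9 in the knockout arrays and 68.2 in wild type. On the log2(signal + 1) scale, which understates changes of dim genes, GH3.3 fell by 1.61 in the enhancer trap against wild type (SE 0.263, 95% interval -2.14 to -1.08, limma adjusted p = 3.09e-05). Against the knockout it fell by 2.27 (SE 0.228, 95% interval -2.72 to -1.81, limma adjusted p = 3.44e-10).

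WES1, of the same enzyme family, had a signal of 128 in the enhancer trap, 258 and 228 in the knockout arrays and 223 in wild type. The enhancer trap was again lowest, while wild type and knockout replicate 2 lay side by side. It fell by 0.80 on the log2 scale in the enhancer trap against wild type (SE 0.206, 95% interval -1.22 to -0.39, limma adjusted p = 0.0124) and by 0.92 against the knockout (SE 0.178, 95% interval -1.28 to -0.56, limma adjusted p = 0.000366). The difference from wild type was no longer past the test with median centring over all probe sets (limma adjusted p = 0.0718), without the signal filter (0.137) or without the intensity trend (0.186), and the difference from the knockout was not past it without the trend (0.0621).

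**Figure D1:**
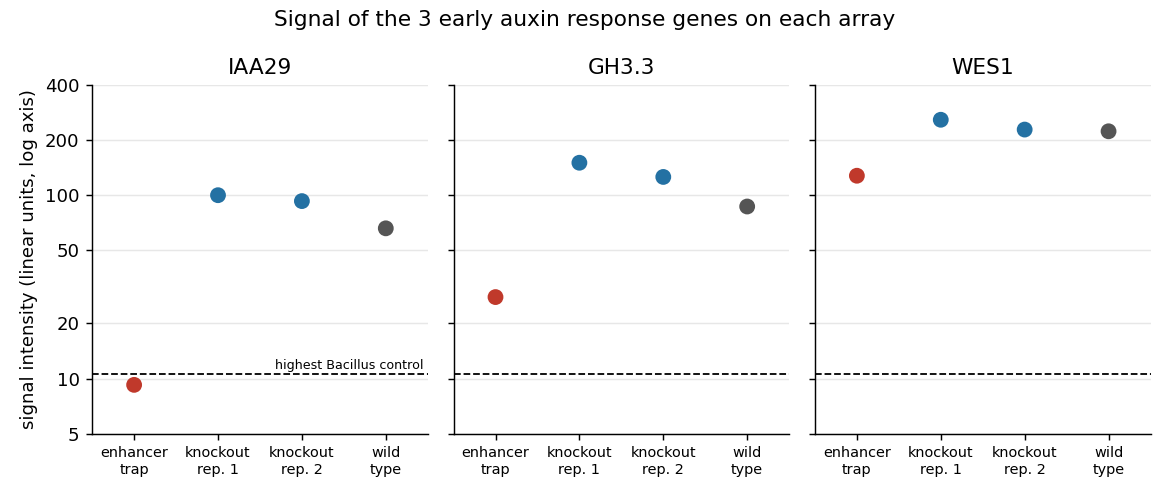
Signal intensity (log axis) of IAA29, GH3.3 and WES1 on each of the 4 arrays, 1 point per array, with the highest Bacillus control signal of 10.6 as a dashed line. The enhancer-trap point is the lowest for each gene, and for IAA29 it lies under the line at 9.24.

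The test counted 308 of the 13648 probe sets (2.26%) as lower in the enhancer trap than in wild type, and 443 (3.25%) as lower than in the knockout. Both calls were met together by 261 (1.91%), IAA29, GH3.3 and WES1 among them. The 3 genes were chosen with these results known, so their count of 3, their ranks and their median change are descriptions only. The number of calls as lower than wild type was 176 with median centring over all probe sets, 111 without the filter and 143 without the trend. By size of fall against wild type, GH3.3 ranked as number 78 and WES1 as number 377, and against the knockout as numbers 24 and 255. IAA29 has only a bound and is given no rank. The median change of the 3 genes was -1.61 against wild type, where all tested probe sets had a median of -0.01, and -2.27 against the knockout, where all had 0.01. Wild type and enhancer trap are single arrays, so a trait of the line cannot be told apart from a deviation of 1 array.

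**Figure D2:**
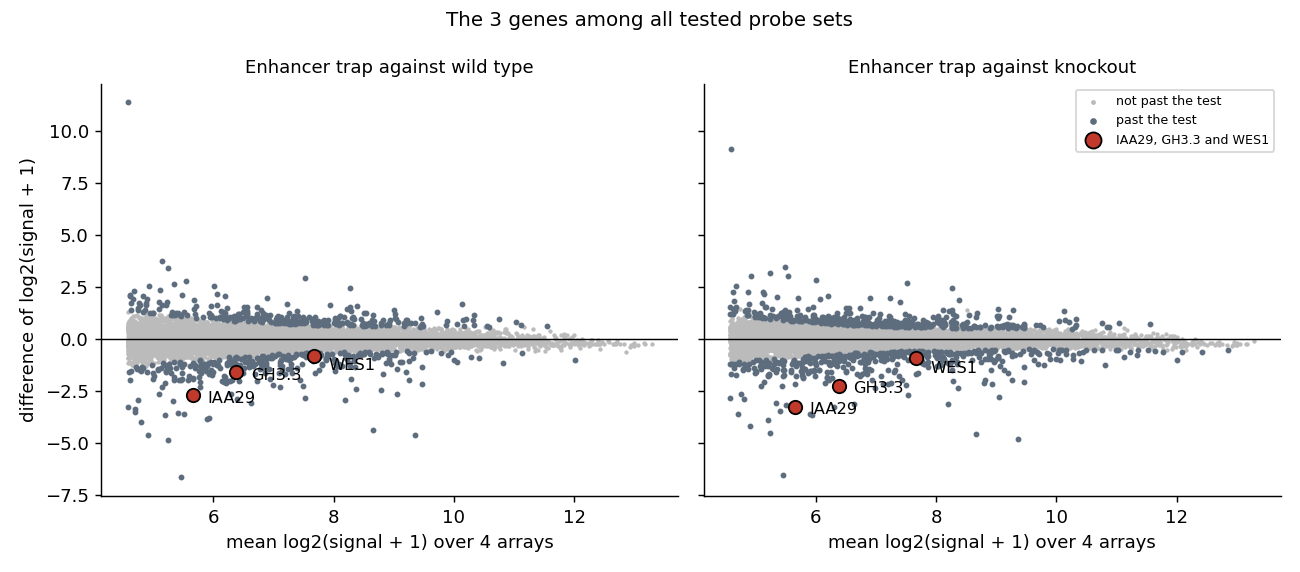
Difference of log2(signal + 1) between the enhancer trap and wild type (left) or the knockout mean (right) against mean log2(signal + 1), 1 point per tested probe set, with those past the test in dark grey and the 3 genes in red. IAA29, whose enhancer-trap reading is within background, and GH3.3 lie well below the mass of probe sets of their intensity, WES1 lies at its lower edge at -0.80 and -0.92, and the point near the top of each panel is CES.

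The size of the difference could also be read array by array, on the log2(signal + 1) scale. For IAA29, with the enhancer trap set to the background of 10.6, it lay at least 3.12 below knockout replicate 1, 3.01 below replicate 2 and 2.53 below wild type. For GH3.3 the differences of the enhancer trap from these arrays were -2.39, -2.14 and -1.61, and for WES1 they were -1.01, -0.83 and -0.80. The knockout arrays differed from each other by 0.11 for IAA29, 0.26 for GH3.3 and 0.18 for WES1, beside a median absolute difference of 0.17 over all tested probe sets. For each gene, the enhancer trap was thus farther from every other array than the knockout arrays were from each other. The share of all tested probe sets of which this holds was not computed, so it sets the 3 genes apart from no others. Wild type likewise lay farther from both knockout arrays than these lay from each other for IAA29 (0.59 and 0.49) and GH3.3 (0.79 and 0.53). For WES1 it did so from knockout replicate 1 (0.21) but not from replicate 2 (0.03). Of all tested probe sets, 29.8% were lower in the enhancer trap than in each of the other 3 arrays.

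In the knockout against wild type the 3 genes were at 0.54, 0.66 and 0.12 on the log2 scale, and 0 passed the limma test over all probe sets. An unadjusted p under 0.05 was found for 1 of the 3, and for 774 of all 13648 tested probe sets. IAA29 had a difference of 0.54 (SE 0.270, 95% interval -0.0041 to 1.08, limma adjusted p = 0.887). GH3.3 had 0.66 (SE 0.228, 95% interval 0.20 to 1.12, limma adjusted p = 0.463), where the interval is for this gene alone and takes no account of the number of genes tested. WES1 had 0.12 (SE 0.178, 95% interval -0.24 to 0.48, limma adjusted p = 0.9999). The knockout arrays were 0.59 and 0.49 above wild type for IAA29, 0.79 and 0.53 for GH3.3, and 0.21 and 0.03 for WES1. Over the whole array, 25 probe sets differed past the test between knockout and wild type (0.183%), of which 68.0% were higher, and 50.0% of 2 were higher with median centring over all probe sets.

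The order of levels was therefore the same for each gene, with both knockout arrays above wild type and wild type above the enhancer trap. This order was found in 1397 of the tested probe sets (10.2%). Knockout and wild type, neighbours in it, did not differ past the test for any of the 3, whereas both differed from the enhancer trap in the fit as reported.

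**Figure D3:**
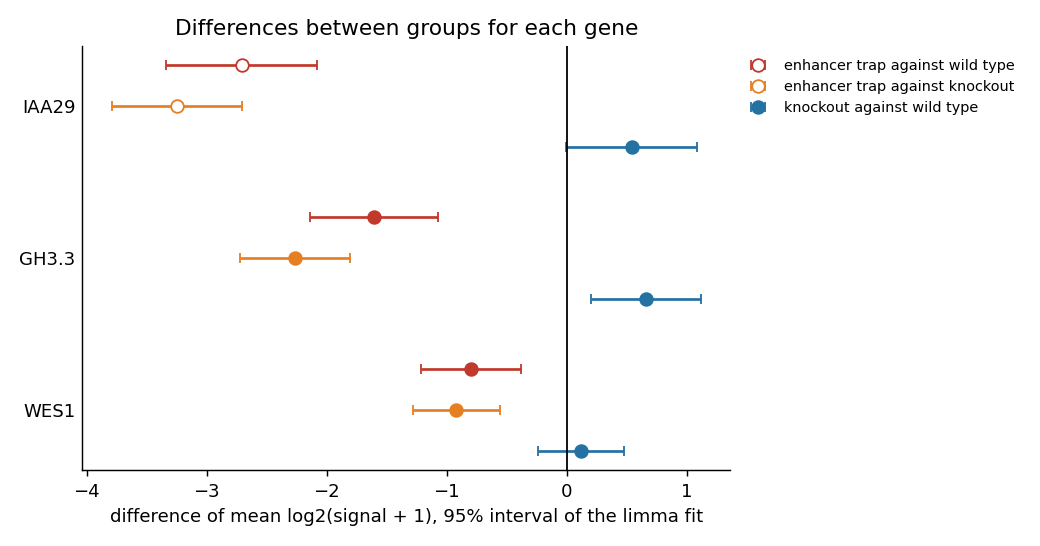
Difference of mean log2(signal + 1) between groups for IAA29, GH3.3 and WES1, with 95% intervals of the limma fit; open circles mark differences in which the enhancer trap was at background, where the fitted value is no bound. The intervals for both enhancer-trap comparisons lie below 0 for each gene, and those for knockout against wild type reach from -0.24 to 1.12 over the 3 genes.

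The rest of the auxin pathway could be named only in part. Of 128 other genes in 9 lists of auxin and light signalling, 21 carry an annotated probe set of their own on the array and 7 of these passed the signal filter. The 4 lists of auxin response factors, receptors and their partners, auxin transport, and light and shade signalling had no annotated member. This concerns the annotation used, which leaves 8730 probe sets unlisted and gives several genes to 503. Signals of further list genes may lie among these without a name. Against wild type, 2 of the 7 fell in the enhancer trap and 1 rose, beside 2.26% lower and 2.04% higher of all tested probe sets. Against the knockout 2 fell and 0 rose by limma, beside 3.25% lower and 2.74% higher of all. An unadjusted p under 0.05 was found there for 4 of the 7, and for 2140 of all 13648 tested probe sets. Between knockout and wild type none of the 7 passed: the count was 0 both by limma and at an unadjusted p under 0.05. Of all 13648 tested probe sets, 0.183% passed by limma and 774 had an unadjusted p under 0.05. The median difference of the 7 was 0.21 for the enhancer trap against wild type and 0.20 against the knockout.

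HAT2, an auxin-induced homeodomain-leucine zipper gene, had a signal of 168 in the enhancer trap, 403 and 361 in the knockout arrays and 325 in wild type. Its order of arrays was that of IAA29, GH3.3 and WES1. HAT2 fell by 0.95 in the enhancer trap against wild type (SE 0.192, limma adjusted p = 0.000855), and it fell by 1.18 against the knockout (SE 0.167, limma adjusted p = 1.37e-06). The difference from wild type was not past the test without the filter (limma adjusted p = 0.0571) or without the trend (0.113).

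IAA18 was the only annotated Aux/IAA gene besides IAA29 to pass the filter, of 6 others annotated and 28 listed. Its signal was 135 in the enhancer trap, 195 and 209 in the knockout arrays and 218 in wild type, so that the enhancer trap was lowest but wild type highest. IAA18 fell by 0.68 against wild type (SE 0.208, limma adjusted p = 0.0484) and by 0.58 against the knockout (SE 0.180, limma adjusted p = 0.0455). The difference from wild type was not past the test with median centring over all probe sets (limma adjusted p = 0.130), without the filter (0.202) or without the trend (0.266). The difference from the knockout was not past the test under these 3 settings either, at 0.0932, 0.166 and 0.228. Against wild type and knockout as 1 group of 3, another contrast, IAA18 was not past the test (limma adjusted p = 0.0508).

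Of the GH3 family, GH3.17, which makes the glutamate conjugate of indole-3-acetic acid, was the only annotated and tested member besides GH3.3 and WES1. Its signal was 256 in the enhancer trap, 237 and 209 in the knockout arrays and 208 in wild type. It differed by 0.30 in the enhancer trap against wild type (95% interval -0.11 to 0.70, limma adjusted p = 0.631) and by 0.20 against the knockout (95% interval -0.15 to 0.55, limma adjusted p = 0.675). The enhancer trap was the highest array for GH3.17 and the lowest for GH3.3 and WES1. Whether the 3 synthetase genes differ in their change was not tested.

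YUC2, a flavin monooxygenase gene of auxin synthesis, had a signal of 19.3 in the enhancer trap, 23.4 and 29.5 in the knockout arrays and 28.8 in wild type, and differed by -0.55 from wild type (limma adjusted p = 0.674). In the list of auxin conjugate hydrolysis, oxidation and glucosylation, AT1G14120 rose by 0.84 against wild type (SE 0.231, limma adjusted p = 0.0218), with a signal of 175 in the enhancer trap, 120 and 112 in the knockout arrays and 97.2 in wild type. This call was not past the test with median centring over all probe sets (limma adjusted p = 0.0682), without the filter (0.153) or without the trend (0.149). Against wild type and knockout as 1 group of 3, another contrast, AT1G14120 was not past the test either (limma adjusted p = 0.0666). AT1G14130 of the same list was at 0.45 (limma adjusted p = 0.639), and the auxin glucosyltransferase gene UGT74D1 at 0.21 (limma adjusted p = 0.846). For all 3 tested genes of this list the enhancer trap was the highest array.

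**Figure D4:**
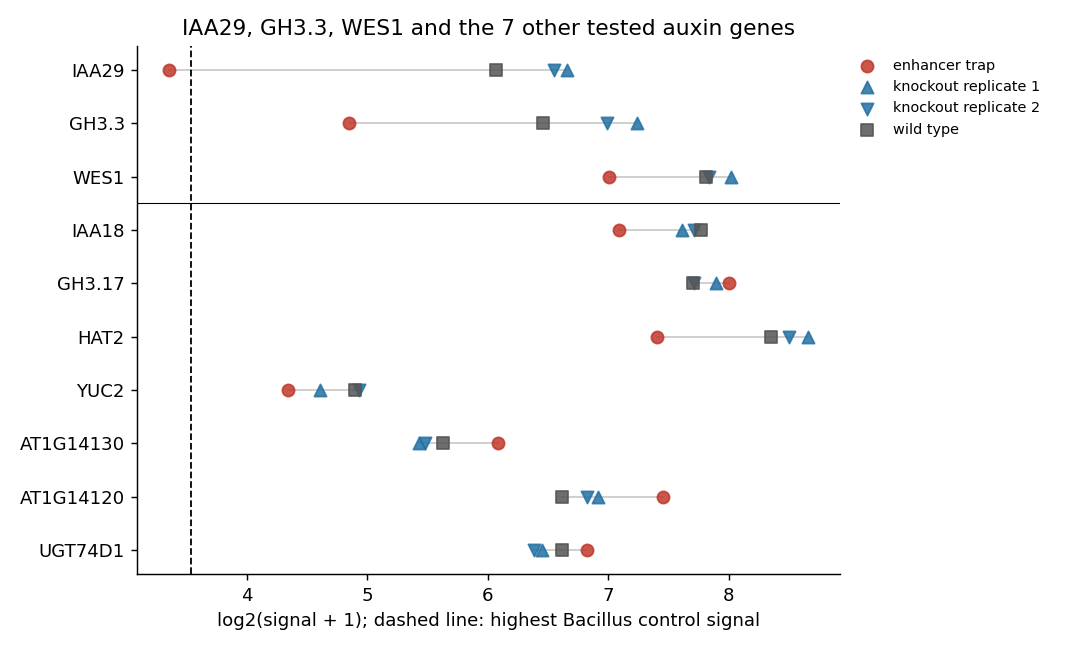
Log2(signal + 1) of IAA29, GH3.3, WES1 and the 7 other tested genes of the auxin lists on each array, 1 point per array. The enhancer-trap point is leftmost for the 3 genes and for IAA18, HAT2 and YUC2, and rightmost for GH3.17, AT1G14130, AT1G14120 and UGT74D1.

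Tissue and reference transcripts gave the following values beside these differences. The shoot genes LHCB4.1, LHCB4.2 and PRK were at -0.23, -0.24 and -0.07 in the enhancer trap against wild type, and 0 of the 3 passed by limma. Of 2 tested root genes, PYK10 was at 0.22 (limma adjusted p = 0.738). EXPA7, a root-hair expansin gene, rose by 1.31 (limma adjusted p = 0.00191), with a signal of 113 in the enhancer trap, 59.3 and 83.1 in the knockout arrays and 44.7 in wild type. The rise of EXPA7 was not past the test without the filter (limma adjusted p = 0.159) or without the trend (0.0665). Against wild type and knockout as 1 group of 3, another contrast, EXPA7 was not past the test either (limma adjusted p = 0.151). The reference genes PEX4, AT4G34270 and AT2G28390 were at -0.03, 0.12 and 0.25. The part of tissue make-up in the lower signals of IAA29, GH3.3 and WES1 was not tested.

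IAA29 and WES1 lie on chromosome 4 and GH3.3 on chromosome 2. On either side of each, the 3 nearest tested genes with an annotated probe set of their own were read as well, 18 in all. In the enhancer trap against wild type they ranged from -0.56 to 0.70, with a median of 0.05. By limma 0 fell and 1 rose, beside 2.26% lower and 2.04% higher of all tested probe sets. An unadjusted p under 0.05, in either direction, was found for 2, and for 1760 of all 13648 tested probe sets. AT2G23120, just before GH3.3 among the tested genes, was the 1 past the test, and it rose by 0.70 (limma adjusted p = 0.0107). That rise was not past the test without the filter (limma adjusted p = 0.171) or without the trend (0.247). Against wild type and knockout as 1 group of 3, another contrast, AT2G23120 was not past the test either (limma adjusted p = 0.173). AT4G32270 and AT4G32290, the nearest tested genes on either side of IAA29, were at -0.0046 and 0.15, and AT4G27130 and AT4G27270, beside WES1, at 0.09 and 0.34. Against the knockout the 18 ranged from -0.48 to 0.60, and 0 passed by limma, beside 3.25% lower and 2.74% higher of all. An unadjusted p under 0.05 was found for 1 of them, and for 2140 of all 13648 tested probe sets.

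**Figure D5:**
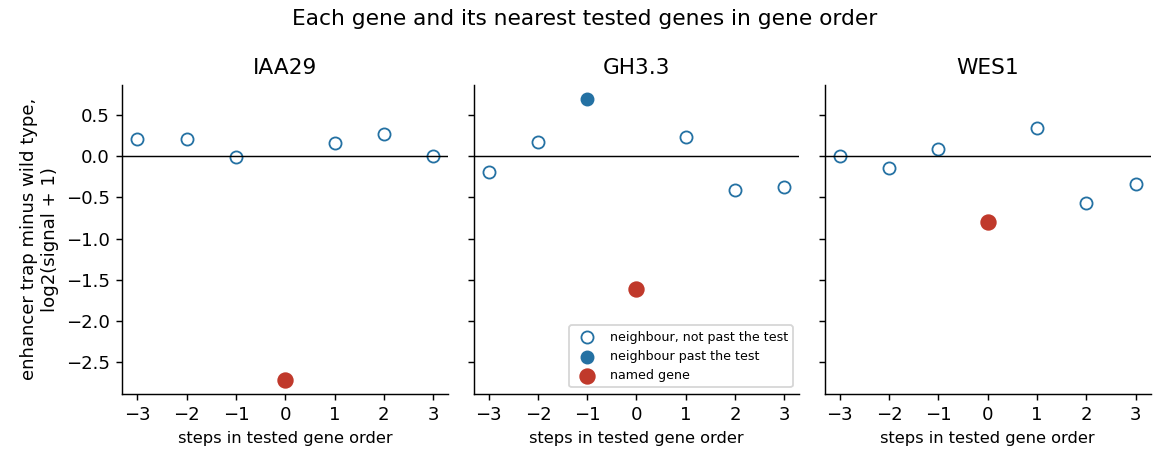
Difference of log2(signal + 1) between the enhancer trap and wild type for IAA29, GH3.3 and WES1 (red) and the 3 nearest tested genes on each side in gene order (blue, filled where past the test). The neighbours lie between -0.56 and 0.70, above the red point in each panel.

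Genes with the most similar values over the 4 arrays were found by Euclidean distance between log2(signal + 1) profiles, each centred on its own mean, among 7252 other probe sets with 1 matched gene. Nearest to IAA29 was AT3G23550, at a distance of 0.067, with a signal of 14.9 in the enhancer trap, 161 and 147 in the knockout arrays and 99.7 in wild type. The others of the 5 were AT4G19530, with a signal of 58.3 in the enhancer trap, 478 and 566 in the knockout arrays and 456 in wild type, and AT1G64360, AT5G52760 and AT4G19500. In the enhancer trap these last 3 had signals of 7.30 at most, under the 10.6 of background like the 9.24 of IAA29, so that every distance from IAA29 rests on a reading within background and gives no measured order. GH3.3 lay at 0.899 from IAA29 and WES1 at 1.93.

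Nearest to GH3.3 was AT3G60420, at 0.419, with a signal of 20.6 in the enhancer trap, 82.8 and 74.6 in the knockout arrays and 67.2 in wild type. AT3G16530 (0.481), AT1G66100 (0.497), AT5G03350 (0.539) and AT1G22890 (0.575) came next. Nearest to WES1 were AT1G06830 (0.0745), AT1G64710 (0.0748), AT5G53900 (0.0759), AT4G10750 (0.102) and KELP (0.107). AT1G06830 had a signal of 73.4 in the enhancer trap, 155 and 129 in the knockout arrays and 126 in wild type. The distance depends on the size of the change as well as on its shape, and over 4 arrays it is only a description. None of the 15 genes named by it belongs to the auxin and light lists. Only 7 genes of these lists were among the 7252 candidates, so their absence says nothing about the 15.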

How the data were processed

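Single-colour ATH1 arrays of 4 RNA samples were used. The signal intensities were deposited by the authors on a linear scale. MAS5 and GCOS are named for them, per the submitters' processing notes, without versions. Each array has a mean of 100 once 2% is trimmed at each end, as computed from the values. Groups follow the sample labels.

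Of 22810 probe sets, 64 controls were left out. Signals were taken as log2(signal + 1), and the 13648 probe sets whose mean reached the 40th percentile (4.58) were kept. One model of 3 group means was fitted to all 4 arrays in R 4.3.3 with limma 3.58.1 (lmFit, eBayes with an intensity trend), with two-sided p-values adjusted by Benjamini-Hochberg over all kept probe sets at 0.05. "Past the test" means an adjusted p under 0.05. The 1 residual degree of freedom comes from the knockout arrays, the prior adds 41.8, and the same spread is assumed for the lone arrays. That spread may be technical, and the p-values measure nothing beyond it. Intervals at 95% are not adjusted for the number of genes. Few arrays limit the precision of every value.

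A fold with 1 side at or under 10.6 is given as a bound, the mean of the brighter side over 10.6; fitted log2 values of such a gene and its distances to other profiles are no bounds. Genes were named through the platform annotation: 13513 probe sets have 1 gene (13436 found in the TAIR10.1 gene table), 503 several, and 8730 are not listed; a gene with several probe sets is represented by the brightest. Named are the 3 genes, every tested gene of the auxin and light lists past the test with up to 3 others per list, the 5 nearest profiles and the 3 nearest tested genes per side. Genes and lists were chosen with earlier results of these data known. Sequences were not analysed here. Plots were made in Python 3.11.15 with matplotlib 3.10.9. Alternatives changed the pseudocount, scaling, filter, trend and grouping, or left out 1 knockout array. The changed grouping sets the enhancer trap against wild type and knockout as 1 group of 3, so it does not test the difference from wild type alone.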

Additional observations from a re-analysis of the deposited data

How the results depend on the processing

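IAA29 and GH3.3 stayed past the test and lower in the enhancer trap, against both wild type and knockout, under each alternative that gave a test, with limma adjusted p up to 0.0394; IAA29 fell under the filter at the 60th percentile and was not tested there. WES1 against wild type was at -0.78 with median centring over all probe sets and at -0.80 without the filter and without the trend, not past the test in these 3. It stayed past it in 5 of 8 tested alternatives. For all 3 genes, the tested alternatives against wild type include wild type and knockout as 1 group of 3, which is not wild type alone. They also include median centring over the tested probe sets, chosen after seeing the data. WES1 against the knockout was at -0.92 without the trend, not past the test. In the knockout against wild type, the 3 genes were past the test in 0 alternatives by limma. Without either knockout array, which leaves no test, no difference of the 3 genes from the knockout changed sign. The difference between enhancer trap and wild type uses no knockout array and could not change there. Probe sets past the test in the enhancer trap against wild type numbered 316 with median centring over all probe sets, 153 without the filter and 205 without the trend, against 586, with 44.3%, 27.5% and 30.2% of them higher, against 47.4%. Against the knockout they numbered 511, 231 and 335 (310, 163 and 215 lower), against 817 (443 lower), with 39.3%, 29.4% and 35.8% higher, against 45.8%. In the knockout against wild type they numbered 2, 0 (1211 at an unadjusted p under 0.05) and 2, against 25, and 59 with median centring over the tested probe sets, an alternative chosen after seeing the data. The prior degrees of freedom were 41.8 as reported, 10.7, 6.58 and 7.63 in the first 3 of these settings and infinite in the last; the cause of the changed counts was not tested. The other alternatives kept each count within 1.5 times. No paired analysis was possible because the labels record no pairs, and wild type and enhancer trap are single arrays. Dim signals near 10.6 limit what can be read for IAA29 in the enhancer trap.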

Other observations

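Of the 14 annotated auxin genes under the signal filter, 8 were never above 10.6 on any array, GH3.1, IAA20, IAA33 and IAA34 among them, and 6 were above it on at least 1. LBD16, a lateral organ boundaries gene of root branching, had a signal of 12.4 in the enhancer trap, 18.7 and 12.1 in the knockout arrays and 22.5 in wild type. GH3.9 had 8.46 in the enhancer trap, 15.8 and 16.2 in the knockout arrays and 11.2 in wild type. IAA30 had 10.1 in the enhancer trap, 18.6 and 11.2 in the knockout arrays and 9.08 in wild type. IAA31 was above 10.6 in knockout replicate 2 alone, at 12.5. LBD29 and the auxin synthesis gene YUC6 were above it in wild type alone, at 10.7 and 14.8.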
